A study of Mus musculus with 20 samples.

Results

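The E2f family of transcription factors was followed through 2 RNA-seq experiments in p19/Nras cells, with 12 and 8 libraries. Its 8 genes, E2f1 to E2f8, were selected by symbol and by no measured value. All 8 were among the 13156 genes listed in at least 1 of the 2 count tables, of which 11161 were listed in both, and each of the 8 was tested in both tables. The fewest reads assigned to a member in any library were 36, for E2f5 in a Trim33-WT HU library.

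p19/Nras cells, labelled HCC (hepatocellular carcinoma), are a mouse liver cancer line that grew from an Nras-driven tumour in an animal without p19/Arf. All groups share this background. In the vector experiment, Trim33-WT cells (sgCtrl) and the lines Trim33-KO1 and Trim33-KO2 (sgTrim33, made by CRISPR) carried the pWZL vector, here called Ctrl, or a Myc vector. They received no treatment. In the HU experiment, Trim33-WT (sgCtrl) and Trim33-KO (sgTrim33) cells received vehicle or 1 mM hydroxyurea (HU), an inhibitor of ribonucleotide reductase that stalls replication forks, for 4 h. Each of the 10 groups had 2 libraries. Which KO line served with HU, whether a line is a single clone, and whether the libraries of a group came from separate cultures is not stated in the labels, so p-values measure the spread between these libraries, which may be technical.

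E2f proteins bind the promoters of genes for S phase and mitosis, and the balance of activating and repressing members sets when those genes are transcribed. E2f1, E2f2 and E2f3 are activators that the retinoblastoma protein holds back until cyclin-dependent kinases phosphorylate it. E2f4 and E2f5 are classical repressors that act with the pocket proteins Rbl1 and Rbl2 and, for E2f4, in the DREAM complex. E2f6 represses without pocket proteins, through Polycomb partners, and is counted here with E2f4 and E2f5 as a classical repressor. E2f7 and E2f8 are atypical repressors that bind DNA without a Tfdp partner, are themselves E2f target genes, and are known in liver for their part in hepatocyte polyploidy. Trim33 is a ubiquitin ligase, which the title of the series links to E2f4. The libraries measured mRNA, not protein, and in bulk RNA a change in the share of cells that express a gene and a change in RNA per cell cannot be told apart.

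A library of the vector experiment held 14753177 to 17949430 counted reads, while one of the HU experiment held 2315327 to 3082202, which makes values of the latter less precise. Levels are given in CPM, a gene's share of the reads of its library after TMM scaling, on a scale that is the same for all libraries of a table. Of 13 hepatocyte markers, 3 were listed in the vector experiment and 4 in the HU experiment (Afp, Krt8 and Krt18 in both), and Alb, Ttr, Apoa1 and Hnf4a in neither. None of 3 endothelial markers was listed, and the single leukocyte marker listed, Cd68, reached at most 6.30 CPM. The pair of Trim33-WT Myc libraries stood apart from the other pairs, with a mean squared difference per gene of 11.0 times the counting noise, against 2.21 to 4.56 times in each of the other groups.

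The targeted gene, Trim33, was checked in every library first. With the Ctrl vector it was at 246 and 258 CPM in the libraries of WT, at 123 and 130 in those of KO1, and at 201 and 207 in those of KO2. In the libraries labelled Trim33-WT Myc it was 131 and 155 CPM, in those labelled Trim33-KO1 Myc 185 and 193, and in those labelled Trim33-KO2 Myc 124 and 125. With the Myc vector, Trim33 mRNA thus went against the labels for KO1 (log2 fold change against WT 0.40 ± 0.07, standard error, edgeR adjusted p = 0.000243). Directions drawn below from Myc libraries rest on those labels. In the HU experiment Trim33 followed its labels, at 125 to 142 CPM in Trim33-WT and 43.8 to 52.2 CPM in Trim33-KO libraries. The mRNA of Myc itself was 433 and 439 CPM in Trim33-WT Ctrl and 456 and 458 CPM in the libraries labelled Trim33-WT Myc, a difference that did not pass the test (log2 fold change 0.07 ± 0.05, edgeR adjusted p = 0.31). In KO1 and KO2 the Myc-vector libraries had 1.73 ± 0.06 and 1.16 ± 0.06 more on the log2 scale. Transcripts that carry a frameshift from a CRISPR cut can still be counted, so these mRNA values do not measure Trim33 protein.

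Levels of different members were compared per kilobase (kb) of merged exons, from the GENCODE vM1 annotation of NCBIM37 (mm9). E2f4, on chromosome 8 from 107821563 to 107829269, was the most abundant family member in all 10 groups on this scale, at 31.5 CPM per kb in Trim33-KO HU to 45.7 in Trim33-WT Myc. In Trim33-WT Ctrl, E2f4 alone made up 45.2% of the family's summed level and the classical repressors E2f4, E2f5 and E2f6 together 70.5%, against 23.6% for the activators and 5.83% for the atypical repressors. E2f7 was the least abundant member there, over 9.009 kb of exons, at 1.20 CPM per kb, and E2f2 ranked just above it at 3.05. Below E2f4 the order was less stable: E2f6 and E2f1 could not be separated in Trim33-KO1 Ctrl, nor E2f1, E2f6 and E2f5 in Trim33-KO1 Myc, because their libraries overlapped, and in Trim33-KO HU the same held for E2f4 and E2f1. The share of the atypical repressors was 12.6% in Trim33-KO1 Ctrl and 12.5% in Trim33-KO2 Ctrl, and between 14.3% and 17.4% in the HU experiment, whose table was counted separately. Merged exons include every annotated transcript, so a member with long rarely used exons is understated.

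**Figure D1:**
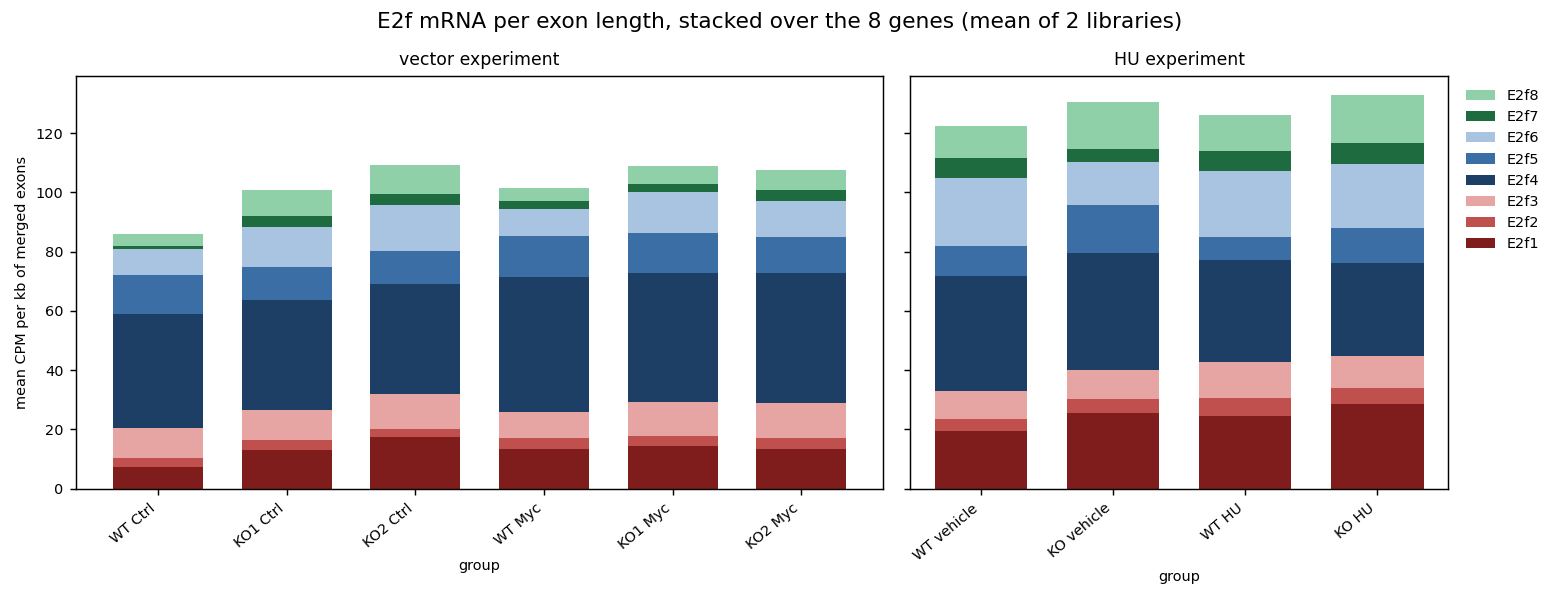
Stacked bars give the mean CPM per kb of merged exons (vertical axis, from 0) of each E2f gene in each group (horizontal axis, 2 libraries per group), with activators in red, classical repressors in blue and atypical repressors in green. E2f4 is the tallest segment in every bar, and the atypical share grows from 5.83% in Trim33-WT Ctrl to 12.6% in Trim33-KO1 Ctrl.

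The first comparison asked which family members differ when Trim33 is targeted in cells with the Ctrl vector. Both KO lines had more mRNA of the activator E2f1, of E2f6 and of both atypical repressors, and no member was called lower in either line. In KO1, 4 of the 8 members were called at an adjusted p below 0.01, all higher (edgeR quasi-likelihood test), where 52.2% of the 13107 genes tested were called, 25.5% higher and 26.7% lower. In KO2, 5 were called, all higher, where 49.9% of all genes were called, 23.3% higher and 26.6% lower. Calls as such were thus about as common among all genes as among the members. The median log2 fold change over the 8 members was 0.35 in KO1 and 0.56 in KO2, beside 0.00 and -0.01 over all genes. KO1 and KO2 were compared with the same Trim33-WT Ctrl libraries, so their values are not independent of each other.

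Among the activators, E2f1, on chromosome 2 from 154385143 to 154395628, is the member best known for driving S-phase entry and, at high levels, apoptosis. It was at 25.0 and 21.8 CPM in Trim33-WT Ctrl, while KO1 Ctrl had 40.1 and 42.9 and KO2 Ctrl 54.7 and 54.6. Every KO library lay above both WT libraries, and KO2 lay above KO1. For KO1 the log2 fold change was 0.83 ± 0.09, or 1.77-fold (edgeR adjusted p = 4.02e-07), and for KO2 1.22 ± 0.08, or 2.34-fold (edgeR adjusted p = 3.66e-09). E2f1 was also the only member called between the KO lines, 0.40 ± 0.08 higher in KO2 (edgeR adjusted p = 0.00105), where 18.3% of all genes were called (8.33% higher, 9.96% lower). That call was lost without Trim33-KO1 Ctrl replicate 1 or either Trim33-KO2 Ctrl library (adjusted p 0.0246, 0.0116 and 0.0115 in that order). The log2 fold changes of E2f2, E2f3, E2f4, E2f5 and E2f6 between the lines lay between -0.27 and 0.21.

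E2f3, which lies on chromosome 13 from 29998444 to 30077537 and has 2 start sites giving a longer activating and a shorter form, moved less. It had 47.0 and 47.1 CPM in Trim33-WT Ctrl, against 48.5 and 50.8 for KO1 and 56.5 and 58.2 for KO2. The groups did not overlap, but the difference was called in KO2 alone, at 0.29 ± 0.07 (edgeR adjusted p = 0.00186), and no longer when either WT library or Trim33-KO2 Ctrl replicate 2 was left out (edgeR adjusted p up to 0.02). In KO1 the log2 fold change was 0.08 (95% interval -0.07 to 0.23). E2f2, an activator with a prominent role in blood cells, was at 12.5 to 15.5 CPM in all Ctrl libraries and differed from WT by 0.05 (interval -0.18 to 0.29) in KO1 and -0.22 (interval -0.45 to 0.02) in KO2.

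Of the classical repressors, E2f4 showed no called difference in either line. Its 2 WT libraries had 75.0 and 79.4 CPM, its KO1 libraries 75.5 and 71.4, and its KO2 libraries 75.6 and 73.1, with overlap between groups. The log2 fold changes were -0.07 (interval -0.22 to 0.07) in KO1 and -0.06 (interval -0.20 to 0.09) in KO2. A rise of E2f4 mRNA above 0.09 on the log2 scale lies outside both intervals. E2f5, the closest relative of E2f4, on chromosome 3 from 14578671 to 14606308, was at 22.5 and 23.3 CPM in WT and between 18.7 and 20.2 CPM in the 4 KO libraries, below WT in each. Its log2 fold changes of -0.22 and -0.25 did not pass (edgeR adjusted p = 0.0447 and 0.0253). E2f6, on chromosome 12 from 16817771 to 16833549, rose from 21.1 and 21.3 CPM in WT to 32.9 and 32.6 with KO1, and to 39.6 and 35.8 with KO2. That is a log2 fold change of 0.63 ± 0.09 for KO1 and 0.83 ± 0.09 for KO2 (edgeR adjusted p = 1.42e-05 and 6.15e-07).

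The atypical repressors had the largest differences within the family. E2f7, on chromosome 10 from 110182495 to 110224440, was at 9.75 and 11.8 CPM in Trim33-WT Ctrl and at 34.2 to 35.7 CPM in all 4 KO Ctrl libraries. Both KO groups lay above WT without overlap, at log2 fold changes of 1.71 ± 0.15 for KO1 and 1.68 ± 0.15 for KO2, or 3.27-fold and 3.21-fold (edgeR adjusted p = 7.65e-08 and 1.096e-07). E2f8, on chromosome 7 from 56121799 to 56136966, was at 21.3 and 20.2 CPM in WT, against 50.2 and 45.5 for KO1 and 51.5 and 55.7 for KO2, again without overlap, at 1.21 ± 0.13 and 1.37 ± 0.13 (edgeR adjusted p = 6.95e-07 and 1.66e-07). Between the KO lines neither differed by the test, E2f7 by -0.03 (interval -0.30 to 0.25) and E2f8 by 0.16 (interval -0.09 to 0.41). The exons of E2f8 share 274 bases, or 5.03% of their length, with the opposite-strand noncoding gene Gm2788, and the sources used here do not say whether strand was used in counting.

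**Figure D2:**
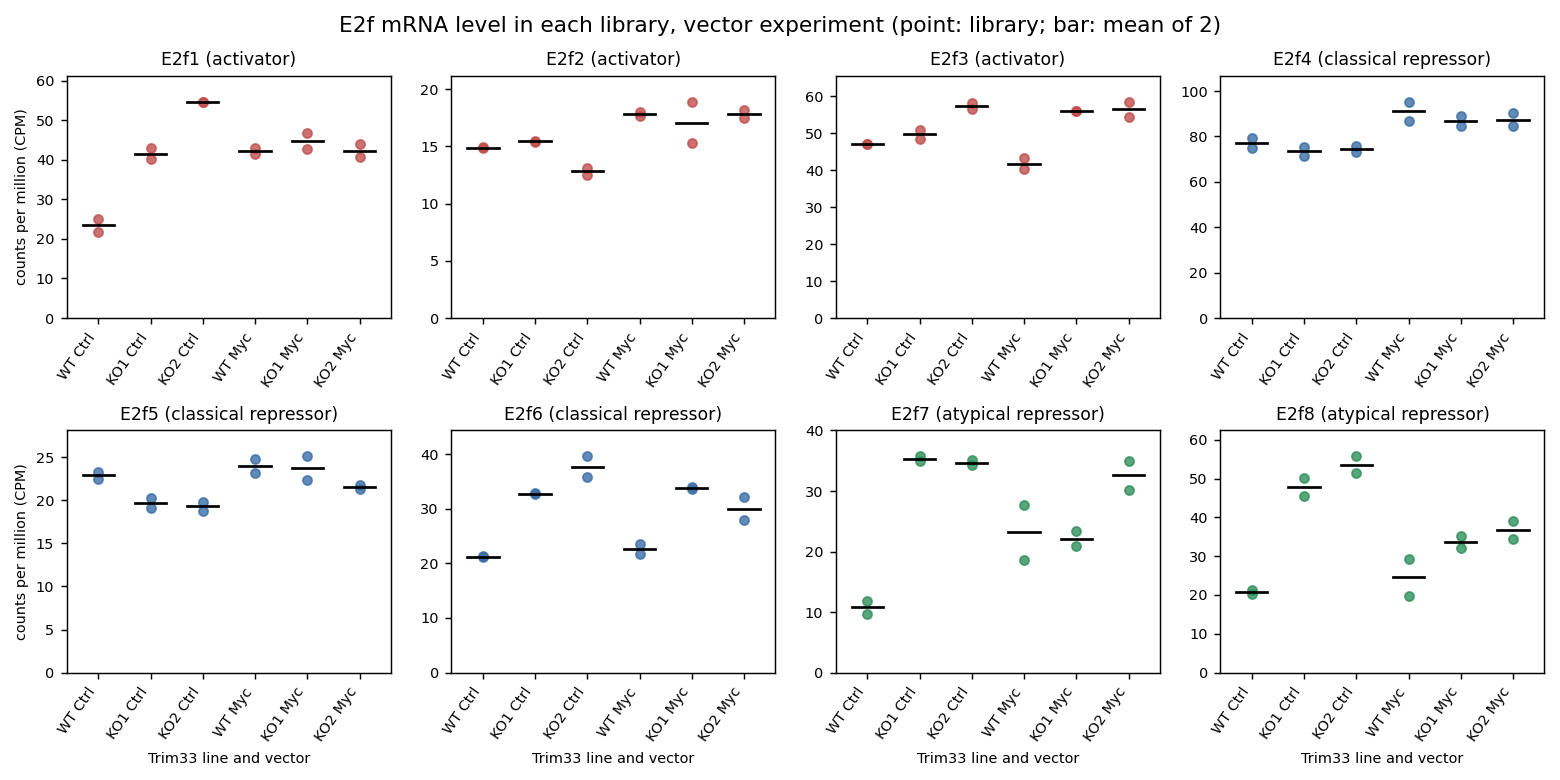
Each panel shows 1 E2f gene in the vector experiment, with a point for each library's CPM (vertical axis, from 0) and a bar at the mean of 2 libraries per group (horizontal axis). E2f7 and E2f8 in the Ctrl-vector KO groups lie far above Trim33-WT Ctrl, E2f4 lies at 71.4 to 79.4 CPM in the Ctrl groups and at 84.5 to 95.3 CPM with Myc, and the pair of Trim33-WT Myc points is wide for E2f7 and E2f8.

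Since E2f1, E2f6, E2f7 and E2f8 were higher in both KO lines with the Ctrl vector, the sequence around start sites was examined in the RefSeq promoter table. It gave 8 windows for 6 members (none for E2f4 and E2f5), each of 300 bases from 250 before to 50 after a start. Every window was placed by a single exact match on NCBIM37. The E2F motif was searched as TTT, then C or G in each of the next 2 positions, then CGC, the cell-cycle homology region (CHR) as TTTGAA or TTCGAA, and the E-box bound by Myc as CACGTG, all on both strands, and no matches of different motifs overlapped in the windows printed. Of all 32851 windows in the table, 2.26% held the E2F motif, 19.2% a CHR and 7.15% an E-box. The stretches that follow are shown because they come from members called higher in a KO line and hold a match, with the matches in capitals and the strand of the gene printed 5′ to 3′.
E2f7 (chr10:110182262-110182339, + strand): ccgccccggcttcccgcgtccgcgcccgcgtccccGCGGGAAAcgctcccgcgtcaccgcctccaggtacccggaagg
E2f8 (chr7:56136967-56137021, - strand): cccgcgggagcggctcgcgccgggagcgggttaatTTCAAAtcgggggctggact
E2f3, upstream start (chr13:30077933-30077990, - strand): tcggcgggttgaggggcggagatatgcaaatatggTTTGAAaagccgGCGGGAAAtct
E2f3, downstream start (chr13:30076261-30076319, - strand): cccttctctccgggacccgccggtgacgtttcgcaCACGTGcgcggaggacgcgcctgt
In the E2f7 window the capitals mark an E2F match on the opposite strand that begins 198 bases before the start, and in E2f8 a CHR match on the opposite strand that begins 20 bases before it. The upstream E2f3 window carries a CHR match beginning 23 bases and an E2F match beginning 11 bases before its start, and the downstream E2f3 start an E-box beginning 24 bases before it. Of the 2 E2f2 windows, one held a CHR match that begins 31 bases before its start and the other an E2F match that begins 40 bases after it. The E2f1 and E2f6 windows held none of these letters, which says nothing of the factors that bind there. The E2f1 window (chr2:154395113-154395412, - strand) lies inside the gene as annotated in GENCODE vM1, whose 5′ end is at 154395628. Bases before that annotated end were therefore not searched for E2f1. The counts do not separate the 2 starts of E2f3. Matches are descriptions of sequence, and no binding was analysed here.

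The second comparison asked how the members differ with the Myc vector. Its Trim33-WT Ctrl libraries are those that KO1 and KO2 were set against above, so these results are not independent. In Trim33-WT, E2f1, E2f4 and E2f7 were higher and no member was lower, whereas E2f8 was lower in both KO lines, together with E2f7 in KO1 and with E2f1 and E2f6 in KO2. In Trim33-WT 3 of 8 members were called, all higher, where 44.3% of all genes were called (21.6% higher, 22.7% lower). In KO1 3 were called, 1 higher and 2 lower, where 36.1% of all genes were called (17.9% higher, 18.2% lower), and in KO2 5 were called, 2 higher and 3 lower, where 38.8% were called (20.2% higher, 18.6% lower). Myc is a transcription factor that drives growth and cell-cycle genes, E2f genes among them.

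E2f1 was at 41.6 and 42.9 CPM in the libraries labelled Trim33-WT Myc, above both Trim33-WT Ctrl libraries, at 0.85 ± 0.09 (edgeR adjusted p = 5.15e-07). In KO1 it was 42.7 and 46.8 CPM with Myc, a difference of 0.11 from Ctrl (interval -0.06 to 0.28). In KO2 it was 44.0 and 40.6 CPM, and the log2 fold change of -0.37 ± 0.08 passed (edgeR adjusted p = 0.00077), though not without Trim33-KO2 Myc replicate 2 (edgeR adjusted p = 0.0167). All 6 Myc-vector libraries thus held E2f1 between 40.6 and 46.8 CPM, while the 6 Ctrl-vector libraries spread from 21.8 to 54.7 CPM. E2f2 was called in KO2 alone, from 12.5 and 13.1 to 18.2 and 17.5 CPM (0.48 ± 0.11, edgeR adjusted p = 0.00131, lost without replicate 1 of either KO2 group), and its log2 fold change was 0.26 in WT and 0.15 in KO1 (adjusted p = 0.0457 and 0.26). E2f3 was not called in any of the 3 lines, with log2 fold changes of -0.17, 0.17 and -0.02 in WT, KO1 and KO2.

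E2f4 was the only member called in the same direction in all 3 lines. It was at 95.3 and 86.9 CPM in Trim33-WT Myc, while KO1 Myc had 88.8 and 84.5 and KO2 Myc 90.2 and 84.5, every library above the 71.4 to 79.4 CPM of the Ctrl-vector libraries. The log2 fold changes were small, at 0.24 ± 0.07, 0.24 ± 0.07 and 0.23 ± 0.07 (edgeR adjusted p = 0.00656, 0.0075 and 0.00838). All 3 calls were lost with DESeq2 (adjusted p from 0.0185 to 0.0285) and without any single library of the 2 KO1 or KO2 groups, or of the WT groups except Trim33-WT Myc replicate 2 (edgeR adjusted p from 0.0134 to 0.0807). E2f5 was not called, at 0.06 in WT, 0.27 in KO1 and 0.16 in KO2. E2f6 was called in KO2 alone, from 39.6 and 35.8 down to 32.1 and 27.9 CPM (-0.33 ± 0.08, edgeR adjusted p = 0.00339, lost without Trim33-KO2 Ctrl replicate 1 or Trim33-KO2 Myc replicate 2).

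E2f7 was higher with the Myc vector in Trim33-WT and lower in KO1. In Trim33-WT it went from 9.75 and 11.8 to 18.6 and 27.7 CPM (1.11 ± 0.16, edgeR adjusted p = 2.53e-05). In KO1 it went from 35.7 and 34.9 down to 20.9 and 23.4 (-0.67 ± 0.13, adjusted p = 0.000623, and 0.0134 without Trim33-KO1 Myc replicate 1), while the KO2 values of 34.2 and 35.1 became 34.9 and 30.2 (-0.09, interval -0.36 to 0.18). E2f8 went from 21.3 and 20.2 to 19.8 and 29.3 CPM in Trim33-WT, where the libraries overlapped. The difference of 0.25 (interval -0.05 to 0.55) turned to -0.06 without Trim33-WT Myc replicate 2 and to 0.50, past the threshold, without replicate 1. In KO1 it fell by 0.51 to 32.0 and 35.2 CPM (edgeR adjusted p = 0.00251), and in KO2 by 0.54 to 39.1 and 34.5 CPM (adjusted p = 0.00119, edgeR). The former was lost without either replicate 1 of KO1 and the latter without either replicate 2 of KO2.

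**Figure D3:**
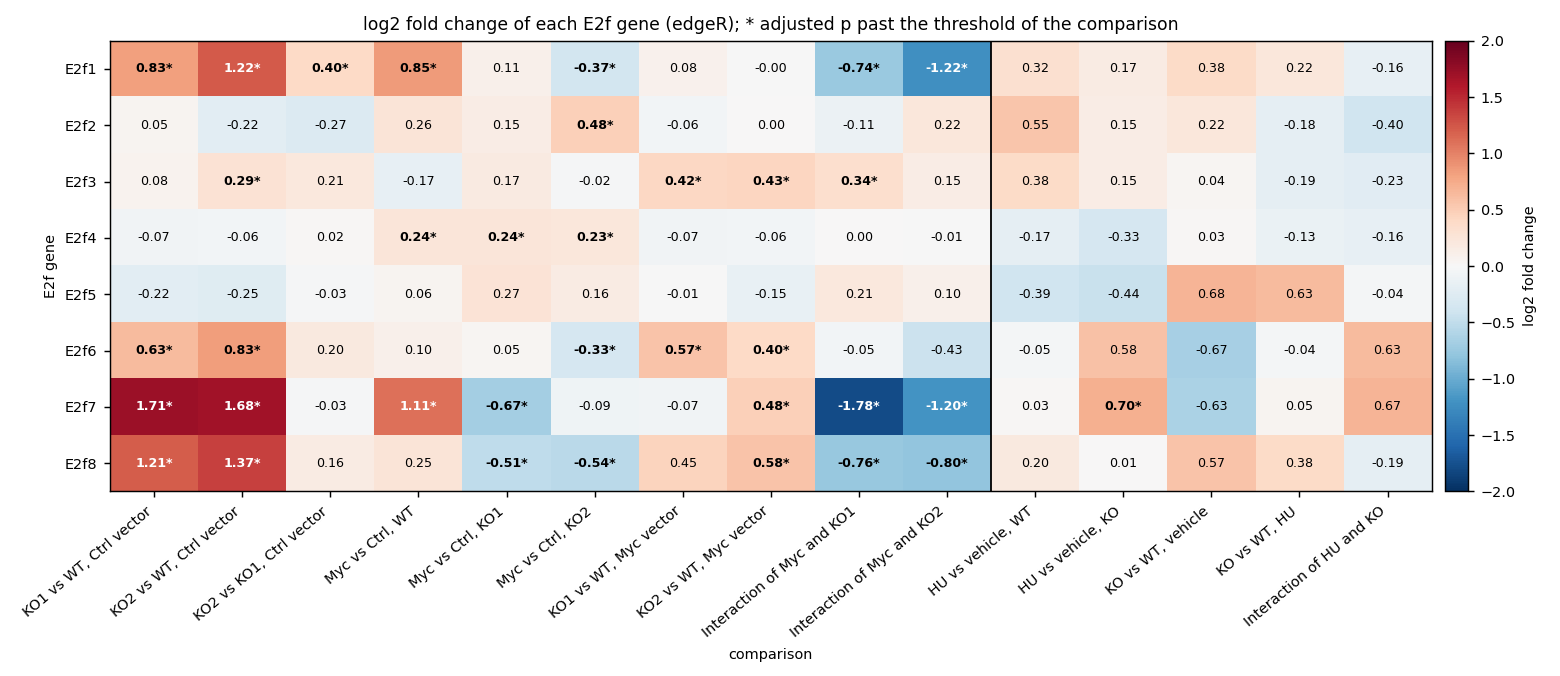
The heat map gives the log2 fold change (colour scale and printed value) of each E2f gene (rows) in each of 15 comparisons (columns), with an asterisk where edgeR's adjusted p passed the threshold of that comparison. The line separates the vector experiment from the HU experiment, where 1 asterisk appears, for E2f7 in HU against vehicle in KO cells.

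Whether the difference between the vectors was another in KO than in WT cells was tested as an interaction of vector and genotype. Myc mRNA was not called higher in the libraries labelled Trim33-WT Myc, but was higher with the vector in KO1 and KO2. Trim33 mRNA also went against the labels for KO1 with the Myc vector. The interaction therefore cannot show by itself that the lines respond differently to Myc. For KO1, 4 members were called, 1 higher and 3 lower, where 37.3% of all genes were called (19.2% higher, 18.1% lower), and for KO2 3, all lower, where 32.8% were called (16.6% higher, 16.2% lower). E2f1 had an interaction of -0.74 ± 0.12 with KO1 and -1.22 ± 0.12 with KO2 (edgeR adjusted p = 6.54e-05 and 3.63e-07). For E2f7 it was -1.78 ± 0.21 and -1.20 ± 0.21 (edgeR adjusted p = 3.65e-06 and 0.000194), and for E2f8 -0.76 ± 0.19 and -0.80 ± 0.18 (edgeR adjusted p = 0.00287 and 0.00219). The call of E2f8 was lost without Trim33-WT Ctrl replicate 2 in both. For KO1 it was also lost without Trim33-WT Ctrl replicate 1, Trim33-WT Myc replicate 2 or replicate 1 of either KO1 group, and for KO2 without replicate 2 of either KO2 group (adjusted p up to 0.019, edgeR). E2f3 had a positive interaction with KO1 of 0.34 ± 0.10 (edgeR adjusted p = 0.00798), which was lost with DESeq2, with these 4 groups alone and without any library of these groups other than Trim33-WT Myc replicate 2 (edgeR adjusted p up to 0.0394). E2f2 had interactions of -0.11 and 0.22 with KO1 and KO2, and E2f5 of 0.21 and 0.10, none called, nor was that of E2f3 with KO2 (0.15). The interaction of E2f4 was 0.00 (interval -0.20 to 0.20) with KO1 and -0.01 (interval -0.21 to 0.20) with KO2. E2f6 had -0.05 with KO1 and missed the threshold with KO2 by little (-0.43 ± 0.12, edgeR adjusted p = 0.0102). The latter was called under 5 of 14 alternatives. Among these were DESeq2's size factors within edgeR and a replicate block (edgeR adjusted p = 0.0095 and 0.00937).

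With the Myc vector in both, E2f3 and E2f6 were higher in each KO line than in Trim33-WT. In KO1 these 2 of 8 members were called, where 25.1% of all genes were called (12.6% higher, 12.5% lower), and in KO2 4, all higher, where 35.2% were called (17.2% higher, 18.0% lower). E2f3 was at 40.2 and 43.4 CPM in Trim33-WT Myc, whereas KO1 Myc had 55.9 and 56.1 and KO2 Myc 58.5 and 54.4, at 0.42 ± 0.07 and 0.43 ± 0.07 (edgeR adjusted p = 0.00016 and 7.64e-05). E2f6 was at 21.8 and 23.6 CPM in WT, against 34.0 and 33.6 for KO1 and 32.1 and 27.9 for KO2, at 0.57 ± 0.09 and 0.40 ± 0.09 (edgeR adjusted p = 7.98e-05 and 0.0013). E2f7 and E2f8 were called in KO2 (0.48 and 0.58), but not with the 2 groups alone in the fit, nor without Trim33-WT Myc replicate 1 or Trim33-KO2 Myc replicate 1. E2f6 in KO2 was likewise lost with the groups alone and without Trim33-KO2 Myc replicate 1. E2f8 in KO1 was 0.45 higher, just outside the threshold (edgeR adjusted p = 0.0129). It was called with DESeq2 (0.45, DESeq2 adjusted p = 0.00712) and without Trim33-WT Myc replicate 2, at 0.76. E2f1 was not called, at 0.08 (interval -0.08 to 0.25) in KO1 and 0.00 (interval -0.17 to 0.17) in KO2, nor was E2f4, at -0.07 (interval -0.21 to 0.07) and -0.06 (interval -0.20 to 0.08). For E2f2 the values were -0.06 and 0.00, for E2f5 -0.01 and -0.15, and for E2f7 in KO1 -0.07, none called.

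The activators were set against the repressors in each library as the mean log2 CPM of E2f1, E2f2 and E2f3 minus that of E2f4, E2f5 and E2f6, a description that carries no test. In Trim33-WT Ctrl the difference was -0.34 and -0.45, and in the 4 KO Ctrl libraries it lay between -0.22 and -0.08. The difference was below 0 in all 12 libraries of the vector experiment. CPM are not divided by exon length, so the sign of such a difference does not rank the classes and only its shifts between groups are read here. Per kb, the summed level of the classical repressors exceeded those of the activators and of the atypical repressors in all 10 groups. For the atypical pair E2f7 and E2f8, minus the classical repressors, the difference was -1.19 and -1.14 in Trim33-WT Ctrl and 0.10 to 0.27 in the KO Ctrl libraries. With the Myc vector it was -0.95 and -0.34 for WT, -0.71 and -0.47 for KO1, and -0.11 and -0.19 for KO2, so the groups stood closer to each other, with the pair of WT libraries farthest apart. In the HU experiment the activators minus the classical repressors lay at -0.39 and 0.05 in WT vehicle, at 0.04 and 0.05 in KO vehicle, at 0.33 and 0.60 in WT HU and at 0.32 and 0.23 in KO HU.

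**Figure D4:**
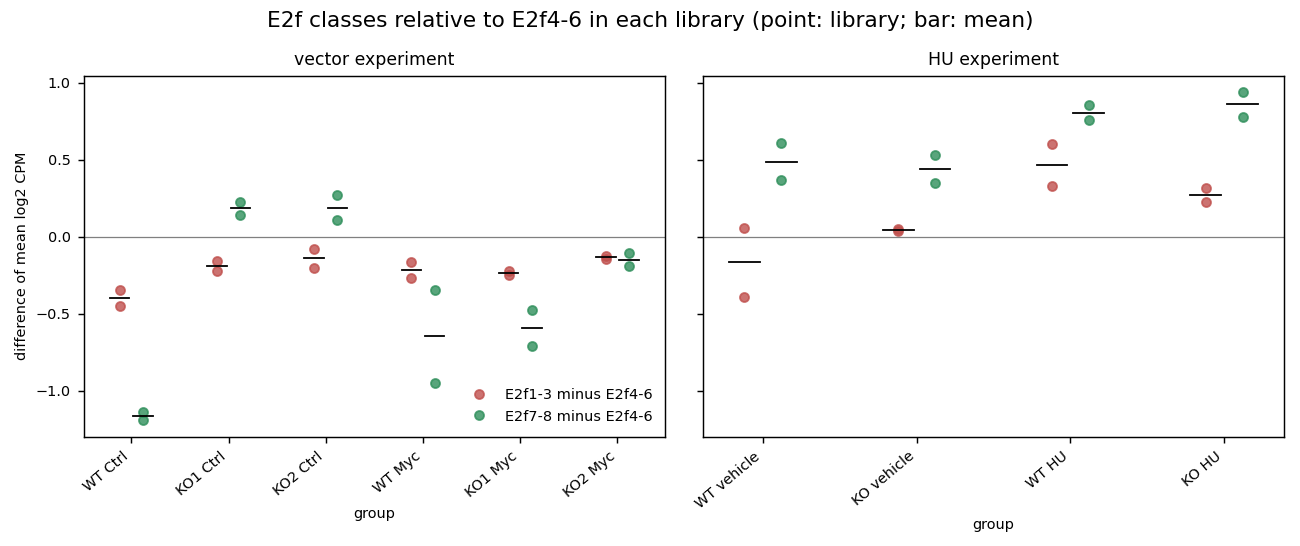
Points give, for each library, the mean log2 CPM of the activators (red) or of the atypical repressors (green) minus that of the classical repressors E2f4 to E2f6 (vertical axis), by group (horizontal axis), with bars at the means. In the vector experiment the green points run from -1.19 in Trim33-WT Ctrl to 0.27 in Trim33-KO2 Ctrl, while the red points stay between -0.45 and -0.08.

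In the HU experiment few members were called, at a lower depth than in the vector experiment. HU against vehicle called 0 of 8 members in Trim33-WT (edgeR and DESeq2, with 1 member at an unadjusted p below 0.05), where 9.83% of 11210 genes were called at an adjusted p below 0.05 (6.39% higher, 3.44% lower). In Trim33-KO it called 1, higher, with DESeq2 also at 1, where 6.45% of all genes were called (4.65% higher, 1.80% lower). That member was E2f7, at 36.6 and 41.4 CPM with vehicle and 60.4 and 67.2 CPM with HU (0.70 ± 0.19, edgeR adjusted p = 0.00951). The call was lost without Trim33-KO vehicle replicate 1 (adjusted p = 0.0934) or Trim33-KO HU replicate 2 (adjusted p = 0.125). In Trim33-WT, E2f7 was at 57.8 and 62.8 CPM with vehicle and at 63.0 and 60.3 CPM with HU, so that KO cells with vehicle were the low group among the 4. E2f6 was lowest in the same group, at 60.0 and 53.0 CPM in WT vehicle, 38.2 and 33.1 in KO vehicle, 57.0 and 52.3 in WT HU and 49.8 and 56.9 in KO HU. Its log2 fold change of 0.58 with HU in KO did not pass (edgeR adjusted p = 0.0623).

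E2f1 was at 46.3 and 75.9 CPM in WT vehicle, and the first of these lay below every other library of the HU experiment. With HU it was at 81.1 and 72.7 CPM in WT and 85.9 and 94.0 in KO, against 77.7 and 82.5 in KO vehicle. The log2 fold change of 0.32 in WT (interval -0.02 to 0.67) became 0.72 and passed the threshold without Trim33-WT vehicle replicate 2 (edgeR adjusted p = 0.0228), and 0.0097 without replicate 1 of that group (edgeR adjusted p = 0.988), so it rested on which of the 2 was kept. In KO the log2 fold change was 0.17 (interval -0.17 to 0.50). E2f4 was at 83.1 and 72.2 CPM in WT vehicle, 76.7 and 60.6 in WT HU, 81.7 and 76.5 in KO vehicle and 58.3 and 67.2 in KO HU, with log2 fold changes for HU of -0.17 (interval -0.51 to 0.16) and -0.33 (interval -0.67 to 0.00) that did not pass. E2f2, E2f3, E2f5 and E2f8 had fold changes for HU between -0.44 and 0.55 on the log2 scale in the 2 lines, none of them called.

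**Figure D5:**
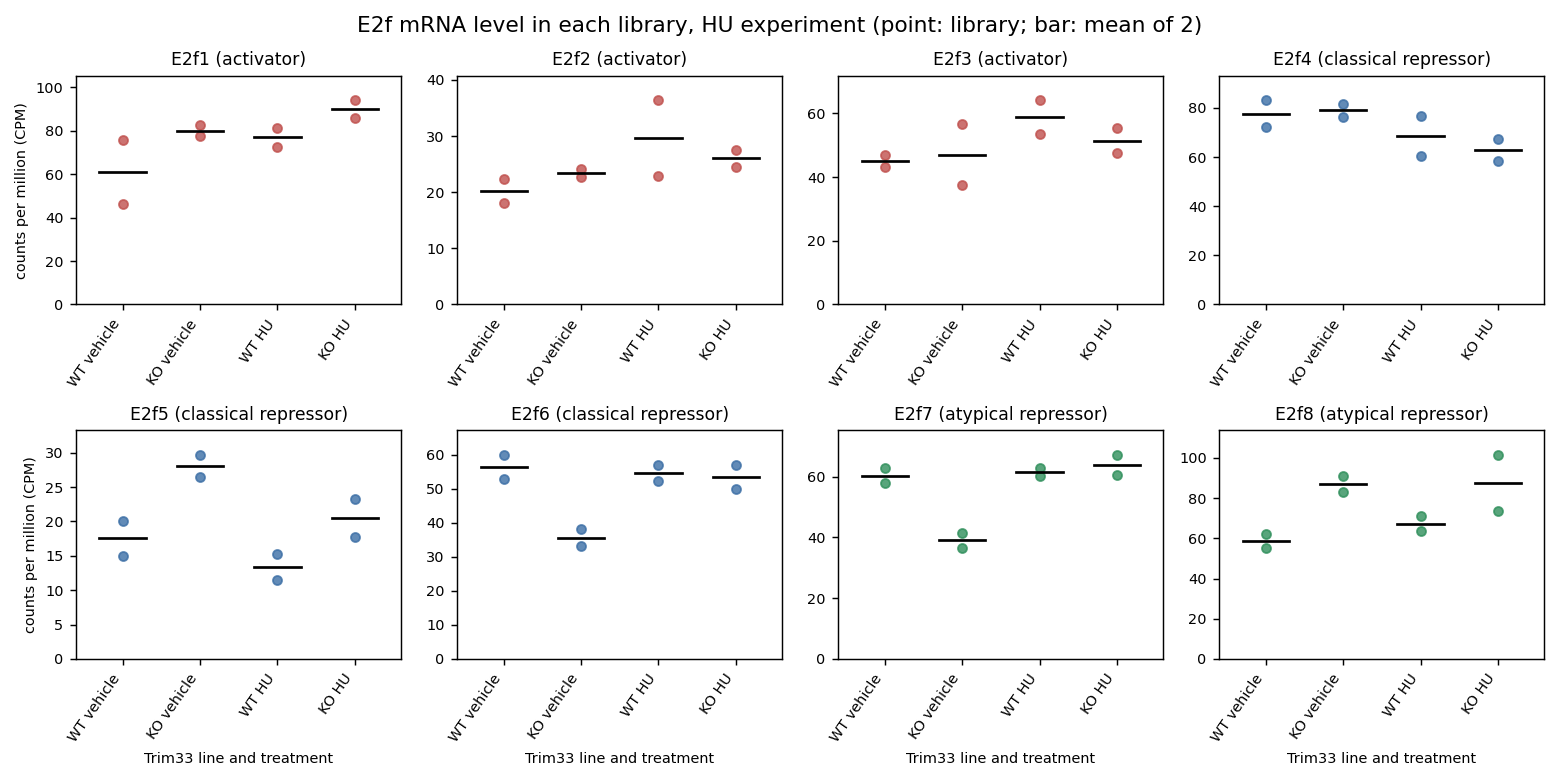
Each panel shows 1 E2f gene in the HU experiment, with a point for each library's CPM (vertical axis, from 0) and a bar at the mean of 2 libraries per group (horizontal axis). For E2f6 and E2f7 the KO vehicle points are below those of the other 3 groups, and for E2f8 the KO points are above the WT points of the same treatment.

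KO against WT called 0 of 8 members with vehicle (edgeR and DESeq2, with 5 at an unadjusted p below 0.05), where 5.58% of all genes were called (3.07% higher, 2.52% lower), and 0 of 8 with HU (both tools, with 2 at an unadjusted p below 0.05), where 6.04% were called (3.27% higher, 2.77% lower). With vehicle, the log2 fold changes were -0.63 ± 0.19 for E2f7, -0.67 ± 0.20 for E2f6, 0.57 ± 0.17 for E2f8 and 0.68 ± 0.29 for E2f5, none past 0.01 (edgeR adjusted p = 0.0202, 0.0181, 0.019 and 0.132). E2f1 had 0.38 ± 0.17, also at an unadjusted p below 0.05 (edgeR adjusted p = 0.156), E2f2 0.22 and E2f3 0.04. The values of E2f5, E2f6 and E2f7 thus lay on the opposite side of WT from those of both KO lines with the Ctrl vector, a contrast between separately counted experiments that was not tested. E2f8 was at 62.1 and 55.3 CPM in WT vehicle and 91.1 and 83.2 in KO vehicle, on the same side as in the vector experiment. E2f4 differed by 0.03 (interval -0.30 to 0.36) with vehicle and -0.13 (interval -0.47 to 0.20) with HU. With HU the 2 members at an unadjusted p below 0.05 were E2f5 (0.63 ± 0.31) and E2f8 (0.38 ± 0.16), and E2f1, E2f2, E2f3, E2f6 and E2f7 had log2 fold changes between -0.19 and 0.22. The interaction of HU and KO called 0 members with both tools (2 at an unadjusted p below 0.05), where 0.0714% of all genes were called (0.0446% higher, 0.0268% lower). Its values were 0.67 for E2f7 (interval 0.16 to 1.19) and 0.63 for E2f6 (interval 0.09 to 1.17). For E2f1, E2f2, E2f3, E2f4, E2f5 and E2f8 they lay between -0.40 and -0.04.

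The partners of the E2f proteins were described from lists chosen with earlier results of these data known. Of the dimerization partners, Tfdp1, which pairs with E2f1 to E2f6, was higher with the Ctrl vector in KO1 and KO2 (log2 fold change 0.91 and 1.00), and Tfdp2 was higher with the Myc vector in WT, KO1 and KO2 (0.47, 0.67 and 0.56). Of the 3 pocket proteins, Rbl2, the partner of E2f4 in quiescent cells, was higher in KO1 and KO2 (0.57 and 0.47), Rb1 lower (-0.77 and -0.44), and Rbl1 not called (0.09 and 0.17). Counts on these lists stand beside 52.2% of all genes called in KO1 and 49.9% in KO2. Of 7 MuvB, DREAM and MMB subunits 3 were higher in each KO line and none lower, no larger a share called than over all genes, with the largest rises for the mitotic activators Mybl2 (0.86 and 1.40) and Foxm1 (0.49 and 1.07), beside a list median of 0.12 in KO1 and 0.02 in KO2. Of 9 Polycomb partners of E2f6, 2 were higher and 4 lower in each line, where 25.5% and 23.3% of all genes were called higher. The heterochromatin protein Cbx3 rose by 0.55 and 0.59 on the log2 scale. Max, the shared partner of Myc and Mga, changed by -0.55 and -0.57. With HU, Rb1 was higher in WT (1.10), while the corresponding value in KO (0.55) did not pass and the difference between them was not called by the interaction test (-0.55).

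Among 14 of 15 listed upstream cyclins, kinases and inhibitors that were measured, 7 were higher and 3 lower in KO1, and 6 higher and 3 lower in KO2. Over all genes, 25.5% were called higher and 26.7% lower in KO1, and 23.3% and 26.6% in KO2. Ccne1 and Ccne2, the cyclins E that activate Cdk2 and are themselves E2f targets, rose most (1.33 and 2.02 in KO1, 2.26 and 2.24 in KO2), and the kinase inhibitor Cdkn1a was lower (-1.30 and -0.95). With HU, Cdkn1a rose by 3.16 in WT and 2.63 in KO on the log2 scale. Of 11 genes that turn E2f proteins over or are linked to them, 8 were higher and 2 lower in both KO lines, beside the same shares over all genes. The 2 lower genes were Trim33 itself and Usp11 (-0.54 and -0.94), and the list median was 0.43 and 0.72. Ccnf, the cyclin F subunit that targets E2f1, E2f7 and E2f8 proteins, rose by 0.42 and 0.89.

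Genes that E2f proteins regulate were read from a list of 32 G1/S and a list of 28 G2/M targets, which share no gene with the family but hold Ccne1, Ccne2, Uhrf1, Ccna2 and Cdc20 in common with the lists above. Of the G1/S targets 27 were higher and 2 lower in KO1 with the Ctrl vector (median 0.74), and 29 higher and 1 lower in KO2 (median 0.95). Over all genes, 25.5% and 23.3% were called higher, with medians near 0. With the Myc vector in both, KO1 had 1 higher and 1 lower than WT (median -0.05), and KO2 4 higher and 4 lower (median 0.07). There 12.6% and 17.2% of all genes were called higher. In the HU experiment KO against WT had 1 higher with vehicle and 0 with HU, and 0 lower (medians 0.00 and 0.09). Most calls in KO were thus seen with the Ctrl vector, where Trim33-WT Ctrl had the lowest mean level of these genes in the vector experiment. In the HU experiment, at lower depth, KO against WT called 5.58% of all genes with vehicle and 6.04% with HU. The contrast between the experiments was not tested. With Myc against Ctrl in WT 30 were higher and 1 lower (median 0.67), where 21.6% of all genes were called higher and 22.7% lower. In KO1 5 were higher and 5 lower with Myc, and in KO2 2 higher and 16 lower. Over all genes 17.9% were called higher and 18.2% lower in KO1, and 20.2% and 18.6% in KO2. The interaction of Myc and KO was called for 27 of the G1/S targets with KO1, 2 higher and 25 lower (median -0.79), and for 28 with KO2, all lower (median -0.85). Over all genes it was called higher for 19.2% and lower for 18.1% with KO1, and for 16.6% and 16.2% with KO2. Examples are Ung, which removes uracil from DNA (2.05 in KO1, 2.11 in KO2 and 1.58 with Myc in WT), and Uhrf1, which recruits maintenance methylation (1.42, 1.82 and 1.36). The licensing gene Cdt1 was lower in both KO lines (-0.52 and -0.33). The mean log2 CPM of the 32 genes was 5.43 and 5.35 in Trim33-WT Ctrl, while KO1 Ctrl had 6.13 and 6.15 and KO2 Ctrl 6.42 and 6.41, and all 6 Myc-vector libraries lay between 6.06 and 6.20. In the HU experiment, counted separately, all libraries lay between 6.64 and 6.89. Of the G2/M targets 18 were higher and 2 lower in KO1 with the Ctrl vector (median 0.39), and 25 higher and 1 lower in KO2 (median 0.61). They were led by Kif20a (1.36 and 1.52) and Mki67 (1.04 and 1.51). With the Myc vector in both, 4 were higher than WT in KO1 (median 0.01) and 12 in KO2 (median 0.12), and 0 lower. In the HU experiment KO against WT had 0 called with vehicle (median 0.03) and 1, higher, with HU (median 0.08), where 3.07% and 3.27% of all genes were called higher. With HU against vehicle, 1 of the 32 G1/S targets was higher and 0 lower in each line. Over all genes 6.39% were called higher in WT and 4.65% in KO. Of the G2/M targets 17 were lower in WT (median -0.45) and 14 in KO (median -0.45), and 0 higher. Over all genes 3.44% and 1.80% were called lower. Among the lower G2/M targets was the mitotic kinase Plk1 (-1.28 and -1.39).

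Marker genes also differed between groups of each experiment. The proliferation markers Mki67, Top2a and Pcna, all of which are also on the lists of E2f target genes above, were higher in both KO lines with the Ctrl vector. Their summed level was 903 to 953 CPM in Trim33-WT Ctrl, 1349 to 1453 for KO1 and 1770.5 to 1794 for KO2. With the Myc vector it was 1113 to 1287 CPM for WT, 1341 to 1449.7 for KO1 and 1434 to 1549.95 for KO2. In the HU experiment the same sum was 1925 to 2149.6 in WT vehicle, 2123 to 2456 in KO vehicle, 1952 to 1985 in WT HU and 1914 to 2087 in KO HU. In the vector experiment the summed level of the 3 of 5 cholangiocyte and progenitor markers listed was 2789 to 2835 CPM in Trim33-WT Ctrl, 2035 to 2110 CPM for KO1 Ctrl and 1806 to 1862 CPM for KO2 Ctrl, and 1087 to 1484 CPM over the Myc-vector libraries. That of the 6 of 7 mesenchymal markers listed was 2913 to 3106 CPM for Trim33-WT Ctrl, 4204 to 4245 for KO1 Ctrl and 3238 to 3285 for KO2 Ctrl. With the Myc vector it was 3168 to 3358 CPM for WT, 2908 to 2926 for KO1 and 3788 to 3831 for KO2. The 3 hepatocyte markers listed summed to 3775 to 3924 CPM for Trim33-WT Ctrl, 3126 to 3172 for KO1 Ctrl and 3335 to 3388 for KO2 Ctrl. With the Myc vector the sum was 2811 to 3224 CPM for WT, 2870 to 3049 for KO1 and 1861 to 1897 for KO2. Sums in the HU experiment follow for WT vehicle, KO vehicle, WT HU and KO HU in that order. The 4 hepatocyte markers listed had 2062 to 2311, 2454 to 2870, 2122 to 2192 and 2555 to 2730 CPM. The 4 mesenchymal markers had 2667 to 2945, 3069 to 3413, 2785 to 2794 and 3421 to 3444 CPM. The 3 cholangiocyte and progenitor markers had 498 to 569, 519 to 537, 633 to 648 and 736 to 737 CPM. The part of these markers in the differences of the E2f genes was not tested.

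The genes whose log2 CPM followed each member most closely over the 12 libraries of the vector experiment were found by Pearson correlation among genes with a mean of at least 5 CPM, a description over libraries that share groups. E2f1 was followed by Trib2 (r = 0.988) and the replication initiation gene Gins2 (r = 0.976), and E2f3 by Nsd2 (r = 0.976) and Simc1 (r = 0.969). For E2f7 they were Pou6f1 (r = 0.990) and Epb41l1 (r = 0.989), and for E2f8 Smo (r = 0.983) and Lrp8 (r = 0.982). E2f4 was followed by Mcm8 (r = 0.954) and Slx1b (r = 0.950), E2f6 by Gm340 (r = 0.971) and Cip2a (r = 0.969), E2f5 by Plekhh3 (r = 0.951) and Trmt1 (r = 0.950), and E2f2 by Zfp629 (r = 0.927) and Fcsk (r = 0.916). By rank (Spearman) the correlation was lower for Trib2 (0.811), Gins2 (0.825) and Simc1 (0.790), and between 0.888 and 0.986 for the other pairs. These genes were picked as the highest values among all genes compared.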

How the data were processed

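Total RNA was taken with TRIzol and libraries made with the NEBNext Ultra II kit, per the labels. The authors aligned reads to mm9 with STAR 2.5.4 (submitters' processing notes, which also name edgeR 3.26.8, and bcl2fastq 2.20 and FastQC 0.11.5 for the HU experiment) and deposited read counts per gene as whole numbers. The counting tool and annotation are not given in the sources used here. The name of 1 table calls its values normalized, but they are whole numbers with unequal library totals, and were used as counts. Among counts from 1 to 50, the HU experiment holds 71.9% even values and the vector experiment 48.4%, so reads may have been counted in pairs in the former. Further deposited tables hold the authors' fold changes and p-values and were not used. Counts with no gene symbol (298 and 168 genes) were tested but belong to no list.

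Each table was fitted alone with edgeR 4.0.16 (R 4.3.3, limma 3.58.1): TMM, 1 coefficient per group, filterByExpr (0 genes removed), quasi-likelihood test, Benjamini-Hochberg adjustment over all genes. Thresholds were 0.01 for KO and Myc comparisons and 0.05 for HU. With 2 libraries per group no permutation can reach 0.05, so tests rest on the spread shared between genes and groups. Fold changes are given with standard errors or 95% intervals. Log2 CPM used a prior count of 0.5. The procedure was tested on simulated data. Exon lengths came from GENCODE vM1. All 8 members are named in each comparison, and of the lists the 2 largest rises and falls among called genes without overlap, or fewer, plus members chosen for their role after their values were seen (Ccnf, Cdt1, Plk1, Rbl1, Ung in KO2 and with Myc, and, with HU, Rb1 and Cdkn1a). The members and lists were chosen with earlier results of these data known. Alternatives were DESeq2 1.42.0, its size factors within edgeR, no filter, a mean of at least 5 CPM, the compared groups alone, a replicate block, each library left out, and halved counts for HU. Same-numbered replicates deviated together with correlations from -0.338 to 0.476 over comparisons, so the numbers were not taken to pair libraries.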

Additional observations from a re-analysis of the deposited data

Results flagged for a closer look

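The response of 4 members to the Myc vector differed between cell lines by a test of the difference itself (edgeR interaction of vector and genotype). Relative to Trim33-WT, the log2 interaction in KO1 was -0.74 for E2f1, -1.78 for E2f7, -0.76 for E2f8 and 0.34 for E2f3. In KO2 it was -1.22 for E2f1, -1.20 for E2f7 and -0.80 for E2f8. Both sets of values use the same Trim33-WT libraries, among them the pair with the Myc vector that stood farthest apart, and Trim33 mRNA in the Myc-vector libraries went against the labels for KO1. Myc mRNA differed by 0.07 on the log2 scale between the libraries labelled Trim33-WT Myc and Trim33-WT Ctrl (edgeR adjusted p = 0.31), and was 1.73 and 1.16 higher with the vector in KO1 and KO2. A difference in response to Myc, in Myc mRNA or in labels cannot be told apart here, and the part of each was not tested.

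Between experiments, 3 members lay on opposite sides of WT. In KO against WT with vehicle the log2 fold change was 0.68 for E2f5, -0.67 for E2f6 and -0.63 for E2f7, with every KO library on 1 side of both WT libraries, whereas in both KO lines with the Ctrl vector E2f5 was lower and E2f6 and E2f7 were higher in every library. None of the vehicle values passed the threshold, and the difference between the experiments was not tested.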

How the results depend on the processing

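The rises of E2f1, E2f6, E2f7 and E2f8 in KO1 and KO2 against WT with the Ctrl vector kept their calls under every alternative run. So did E2f1 and E2f7 with Myc against Ctrl in WT, and the interactions of E2f1 and E2f7. All of these comparisons share the 2 Trim33-WT Ctrl libraries, and every alternative kept at least 1 of them. Their results are therefore not independent of each other. Mean E2f1 was 23.4 CPM in Trim33-WT Ctrl and 41.5 to 54.7 CPM in the other vector groups. With the Myc vector in both, E2f3 in each KO line against WT and E2f6 in KO1 against WT also kept their calls. Over 8 members, 15 comparisons and all alternatives, 1207 log2 fold changes kept their direction and their side of the threshold, 59 lost and 11 gained a call, and 59 changed sign, all of members that were not called. Counts of members called are given next for comparisons where a count moved by over 1.5 times, or to or from 0. Smaller moves are not listed, and calls were also lost or gained in comparisons not named here. With the compared groups alone in the fit, the number of members called was 2 for KO2 against KO1 and 1 for KO2 against WT with Myc. Single libraries left out gave 0 to 1 members called for KO2 against KO1, 0 to 2 for Myc in KO1, 1 to 3 for Myc in KO2, 1 to 4 for KO2 against WT with Myc, 2 to 3 for the interaction of Myc and KO1, 0 to 1 for HU in WT and 0 to 1 for HU in KO. Replicate numbers were not taken to pair libraries, since the correlations of same-numbered deviations ran from -0.338 to 0.476. A replicate block changed 2 counts of members called, that for KO against WT with vehicle from 0 to 1 (E2f8, adjusted p = 0.00973) and that for the interaction of Myc and KO2 from 3 to 4 (E2f6, adjusted p = 0.00937), and turned E2f8 with HU in KO to -0.0027. The other signs that turned were those of E2f5 in KO1 against WT with Myc (0.0032 with a mean of at least 5 CPM, 0.0039 with the groups alone), of E2f1 in KO2 against WT with Myc (0.0020 with DESeq2 size factors, 0.0023 with DESeq2, 0.016 with at least 5 CPM, 0.00027 with the groups alone) and of E2f4 in the interaction of Myc and KO1 (-0.0038 with at least 5 CPM). Over all genes, the counts called moved by over 1.5 times with the groups alone for KO2 against KO1 (4029 in place of 2398), KO1 and KO2 against WT with Myc (1541 and 2775 in place of 3291 and 4614) and KO against WT with HU (1099 in place of 677). With DESeq2 they did so for HU in WT and KO (727 and 456 in place of 1102 and 723), KO against WT with vehicle and with HU (396 and 402 in place of 626 and 677) and the interaction of HU and KO (5 in place of 8). Single libraries left out moved them by over 1.5 times to 1383 to 1475 for KO2 against KO1, 1906 for KO1 against WT with Myc, 553 and 580 for HU in WT, 389 and 469 for HU in KO, 337 for KO against WT with vehicle, 248 to 296 with HU, and 0 to 20 for the interaction of HU and KO.

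Signs also turned when single libraries were left out, with these ranges of log2 values. For KO2 against KO1 they were -0.021 to 0.058 for E2f4 and -0.073 to 0.011 for E2f5. For Myc against Ctrl they were -0.062 to 0.50 for E2f8 in WT, and in KO2 -0.076 to 0.029 for E2f3 and -0.20 to 0.012 for E2f7. For KO1 against WT with Myc they were -0.20 to 0.085 for E2f2, -0.074 to 0.069 for E2f5 and -0.33 to 0.25 for E2f7, and for KO2 against WT with Myc -0.058 to 0.057 for E2f1, -0.024 to 0.032 for E2f2 and -0.13 to 0.0063 for E2f4. The interaction of Myc and KO1 ranged from -0.25 to 0.031 for E2f2, -0.063 to 0.070 for E2f4 and -0.11 to 0.0068 for E2f6, and that of Myc and KO2 from -0.071 to 0.062 for E2f4. For HU in WT the range was -0.15 to 0.034 for E2f6 and -0.036 to 0.078 for E2f7, and for HU in KO -0.14 to 0.47 for E2f3 and -0.24 to 0.22 for E2f8. For KO against WT with vehicle it was -0.29 to 0.33 for E2f3 and -0.080 to 0.13 for E2f4, and with HU -0.48 to 0.19 for E2f2, -0.29 to 0.048 for E2f4, -0.13 to 0.058 for E2f6 and -0.028 to 0.12 for E2f7. For the interaction of HU and KO it was -0.55 to 0.16 for E2f1, -0.51 to 0.11 for E2f3, -0.32 to 0.020 for E2f4, -0.26 to 0.17 for E2f5 and -0.44 to 0.023 for E2f8. The cause of these turns was not tested beyond the fewer libraries fitted.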
